A study of Arabidopsis thaliana with 9 samples.

Results

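The genes described here are the 4 members of a tandem cluster on chromosome 4 of Arabidopsis thaliana, among the 38194 genes counted in the series: AZI1 (AT4G12470), EARLI1 (AT4G12480), AZI3 (AT4G12490) and AZI4 (AT4G12500). They were picked by identifier, and selected on their expression values in these same libraries. Their differences between groups are therefore given as a description, with no test, in all 3 contrasts. RNA was sequenced from whole seedlings, 4 days old and kept at 23 °C under fluorescent light in days of 16 h light and 8 h dark, as 3 libraries (A, B and C) per group. The study's methods name independent biological replicates in describing its other RNA-Seq experiment, and the labels do not say whether these libraries come from separate cultures. If they do not, p-values measure only the spread between libraries, which may be technical. WT is the Columbia accession, which is also the background of both transgenic lines. OE APOLO carries the Arabidopsis long noncoding RNA APOLO under the constitutive viral 35S promoter. OE UPAT carries the human long noncoding RNA UPAT under the same promoter. Per the study's methods, each was sampled as 1 line (OE APOLO-1 and OE UPAT-1), so that an effect of the transgene and one of the line cannot be told apart.

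The members encode small hybrid proline-rich proteins. Such a protein has a signal peptide, a proline-rich stretch and a C-terminal block of spaced cysteines that folds as in lipid-transfer proteins. AZI1 (AZELAIC ACID INDUCED 1) is needed for priming by azelaic acid, a mobile signal of systemic acquired resistance. That response arms distant leaves after a local infection. EARLI1 (EARLY ARABIDOPSIS ALUMINUM INDUCED 1) was named for its response to aluminium, is also induced by cold, and has been tied to freezing protection, flowering time and azelaic acid signalling. AZI3 and AZI4 are named as the close copies of both.

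All 4 members lay on the minus strand, each as a single exon, within 13869 bases at chr4:7401087-7414955 (TAIR10.1). AZI1 lay at chr4:7401087-7401951, EARLI1 at chr4:7406065-7406994, AZI3 at chr4:7409621-7410406 and AZI4 at chr4:7413990-7414955. The predicted proteins had 161 residues for AZI1, 168 for EARLI1, 182 for AZI3 and 177 for AZI4. The cysteine pattern was found in each, after a stretch that held 20, 22, 27 and 23 prolines in the same order. AZI1 and EARLI1 were identical at 90.0% of 160 aligned residues and 88.8% of 483 aligned coding bases. AZI3 and AZI4 were the closest pair, at 92.9% of coding bases.

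Since the members are this alike, it matters whether a read of 75 bases, the length sequenced, can be given to one of them. The stretch below is the part of the cysteine block where EARLI1 and AZI1 are most alike, read 5′ to 3′ along the gene (RefSeq, TAIR10.1, minus strand; chr4:7406398-7406472 in EARLI1 and chr4:7401398-7401472 in AZI1). Capitals mark bases that differ from EARLI1.
EARLI1: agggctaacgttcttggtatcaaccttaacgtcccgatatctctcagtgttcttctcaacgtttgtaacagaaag
AZI1: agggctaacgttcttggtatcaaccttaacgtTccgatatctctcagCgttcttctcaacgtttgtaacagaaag
AZI3: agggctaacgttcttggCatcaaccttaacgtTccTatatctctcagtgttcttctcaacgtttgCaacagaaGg
AZI4: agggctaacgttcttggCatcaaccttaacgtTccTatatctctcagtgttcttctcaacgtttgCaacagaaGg
Even there, AZI1 differed from EARLI1 at 2 bases, and AZI3 and AZI4 each at 5. None of the 791 windows of 75 exonic bases of AZI1, nor of the 856 of EARLI1, occurred anywhere else in the genome. AZI3 and AZI4 shared 13 windows each. The longest exonic run common to AZI1 and EARLI1 was 32 bases, and trimmed reads were kept above 30 bases per the study's methods, so that shorter reads could fit both. Fractions stood in 1 library: WT B had 985.5 counts of AZI1 and 10.5 of EARLI1. Whether both fractions come from the same read is not known. The other values of the members were whole numbers. How many reads of one member were assigned to another was not tested.

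The upstream regions of the 2 members that were expressed, EARLI1 and AZI1, are shown because these genes had such different levels. Each holds the 300 bases before the annotated transcript start (RefSeq, TAIR10.1, minus strand: chr4:7406995-7407294 and chr4:7401952-7402251), read towards the gene. Capitals mark matches, on either strand, to any of 8 motifs.
EARLI1 upstream: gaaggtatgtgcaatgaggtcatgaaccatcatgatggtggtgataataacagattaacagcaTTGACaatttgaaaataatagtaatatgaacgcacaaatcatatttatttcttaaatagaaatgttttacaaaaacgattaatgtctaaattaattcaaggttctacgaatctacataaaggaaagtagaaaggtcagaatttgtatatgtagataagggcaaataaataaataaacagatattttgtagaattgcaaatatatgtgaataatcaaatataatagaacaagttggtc
AZI1 upstream: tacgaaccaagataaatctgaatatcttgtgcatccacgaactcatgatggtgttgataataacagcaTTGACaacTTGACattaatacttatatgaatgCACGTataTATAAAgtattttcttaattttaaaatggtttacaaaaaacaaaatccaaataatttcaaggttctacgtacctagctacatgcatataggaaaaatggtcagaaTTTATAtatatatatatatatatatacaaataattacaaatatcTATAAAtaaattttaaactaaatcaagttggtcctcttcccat
The motifs were the GAAGAA box known from APOLO target loci, the W-box core TTGAC of WRKY factors, the cold-response core CCGAC, the abscisic acid core ACGTG, the G-box CACGTG that contains it, the auxin element TGTCTC, the TGA-factor element TGACG and the TATA box TATAAA. EARLI1 had 1 match in all, a TTGAC beginning 237 bases before its start. AZI1 had TTGAC at 232 and 224 bases, an ACGTG at 200 and TATAAA at 192, 87 and 43 bases. Of these, the ACGTG and the TATAAA at 87 bases lay on the opposite strand. The EARLI1 and AZI1 windows were identical at 70.3% of positions. TTGAC is common, in 49.5% of the 37896 such windows of the genome, and TATAAA stands in 49.9% and ACGTG in 23.5%. Of the other motifs, CCGAC (14.0% of windows), CACGTG (5.98%), TGTCTC (13.0%), TGACG (20.9%) and GAAGAA (35.7%) had no match in the window of EARLI1 or of AZI1. The window of AZI3 had a GAAGAA at 6 bases on the opposite strand, a TTGAC at 150 and TATAAA at 244 and 33. These matches describe the letters only.

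The libraries held from 13023768 to 14084551 counts in WT, from 11918225 to 14112670 in OE APOLO and from 7901946 to 9206471 in OE UPAT. Levels are given as CPM, counts scaled by library size with TMM factors. The floor of detection was set at 3 counts, which is 0.207 to 0.393 CPM. PCR copies were not told apart, so floors and intervals reflect counting error alone. APOLO itself (AT2G34655) had 2 counts in every WT library, 1 to 3 in those of OE APOLO and 0.5 to 1 in those of OE UPAT. A rise of APOLO was thus not seen, and the group is named by its label alone, as "the OE APOLO-labelled libraries". UPAT, a human transcript, has no row, so that label was not checked in this way.

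EARLI1 was nearly silent in WT and the most changed member. WT libraries A, B and C held 23, 10.5 and 15 counts, which is 1.65, 0.723 and 1.17 CPM. The libraries labelled OE APOLO had 124, 58 and 31 counts, or 9.27, 4.30 and 2.67 CPM. All 3 lay above every WT library, but A was 3.47 times C. OE UPAT had 233, 330 and 357 counts, or 25.5, 35.9 and 46.7 CPM, from the smallest libraries of the series. These 3 values lay above all others, and the lowest of them was 15.4 times the highest of WT.

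**Figure D1:**
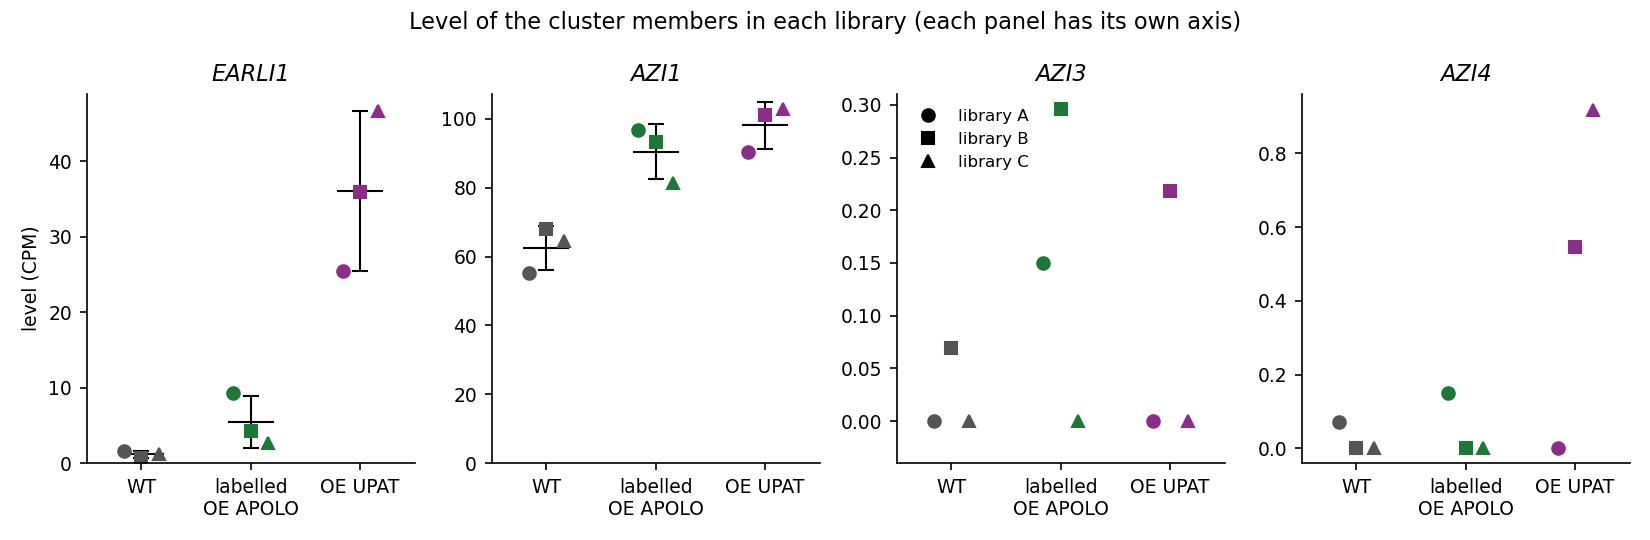
Level of each member in CPM in the 9 libraries, 1 panel per gene, each with its own axis. Points are libraries, and in the panels of EARLI1 and AZI1 the bar is the mean with its SD (n = 3); EARLI1 spans 0.723 to 46.7 CPM, AZI1 55.3 to 103 CPM, and AZI3 and AZI4 stay under 1 CPM.

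The mean of EARLI1 was 1.18 ± 0.466 CPM in WT (SD, n = 3), 5.41 ± 3.44 in the OE APOLO-labelled libraries and 36.1 ± 10.6 in OE UPAT. In the fit over all genes its log2 fold change against WT was 2.23 ± 0.46 (SE) in the OE APOLO-labelled libraries and 4.93 ± 0.38 in OE UPAT, which is 4.68-fold and 30.6-fold. Ordered from the highest rise to the deepest fall, the value in OE UPAT ranked 1 and that in the OE APOLO-labelled libraries 15 among 20021 genes tested. Between both lines it was 2.71 ± 0.30, higher in OE UPAT. The first of these values leaned on 1 library. Without OE APOLO A it was 1.6, and the difference between the lines became 3.34. In whole seedlings, more cells with EARLI1 RNA and more RNA per cell cannot be told apart.

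AZI1 was the abundant member in every library. It had 768, 985.5 and 828 counts in WT (55.3, 67.9 and 64.4 CPM). The libraries labelled OE APOLO had 1294, 1258 and 945 counts, or 96.8, 93.2 and 81.5 CPM. OE UPAT had 824, 929 and 786 counts, which at its lower depth is 90.4, 101 and 103 CPM. All 6 transgenic libraries lay above the 3 of WT, and the ranges of both transgenic groups overlapped.

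The mean of AZI1 was 62.5 ± 6.52 CPM in WT (SD, n = 3), 90.5 ± 7.96 in the OE APOLO-labelled libraries and 98.1 ± 6.79 in OE UPAT. The log2 fold change against WT was 0.53 ± 0.09 (SE) in the former and 0.65 ± 0.09 in the latter, or 1.45-fold and 1.57-fold. In the same order it ranked 1094 and 1411 among the genes tested. Between both lines it was 0.12 ± 0.09. The levels of AZI1 in both lines were close, while those of EARLI1 differed 6.53-fold.

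AZI3 and AZI4 stayed at or near the floor. AZI3 had 0, 1 and 0 counts in WT, 2, 4 and 0 in the OE APOLO-labelled libraries, and 0, 2 and 0 in OE UPAT. Only 1 library passed 3 counts, and no ratio is given. AZI4 had 1, 0 and 0 counts in WT, 2, 0 and 0 in the OE APOLO-labelled libraries, and 0, 5 and 7 in OE UPAT. Its 12 pooled reads in OE UPAT against 1 in WT make a ratio of 18.9 after scaling to library totals, with an exact 95% counting interval from 2.80 to 809. OE UPAT A held no AZI4 read, so that the ratio rests on libraries B and C of that group. The ranges of OE UPAT and WT overlapped. The interval leaves out the spread between libraries, and the ratio is a description. The antisense genes AT4G12485, over EARLI1, and AT4G12495, over AZI3, had 0 counts in every library.

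Only AZI1 and EARLI1 passed the filter on low counts, so that 2 of the 4 members entered the fit. Both were among the genes called higher at a false discovery rate (FDR) under 0.01 in each contrast with WT. That call was made for 4.27% of all genes tested in the OE APOLO-labelled libraries and 10.1% in OE UPAT. Between both lines the count was 1 of the 2, higher in OE UPAT, beside 8.49% of all genes called higher and 9.36% lower. Since these contrasts chose the members, the counts are a description and nothing is read from them. Both contrasts with WT share the WT libraries.

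Per kilobase of exon, the order in WT was AZI1 with 72.3 ± 7.54 CPM per kb (SD, n = 3), then EARLI1 with 1.27 ± 0.501. In OE UPAT they stood at 113 ± 7.85 and 38.8 ± 11.4 CPM per kb, so the order did not change. In WT there were 33.4, 93.9 and 55.2 AZI1 reads for each EARLI1 read, against 10.4, 21.7 and 30.5 in the OE APOLO-labelled libraries. In OE UPAT there were 3.54, 2.82 and 2.20.

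The make-up of the cluster shifted accordingly. EARLI1 gave 2.90%, 1.05% and 1.78% of the counts of the 4 members in WT A, B and C. It gave 8.72%, 4.39% and 3.18% in the OE APOLO-labelled libraries. In OE UPAT it gave 22%, 26.1% and 31.0%. The exact 95% interval was 1.85% to 4.33% in WT A and 2.17% to 4.48% in OE APOLO-labelled library C, so these overlap. All OE UPAT intervals lay apart from the rest, the lowest from 19.6% to 24.7%. These intervals cover counting error only, not the spread between libraries, and are a description.

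**Figure D2:**
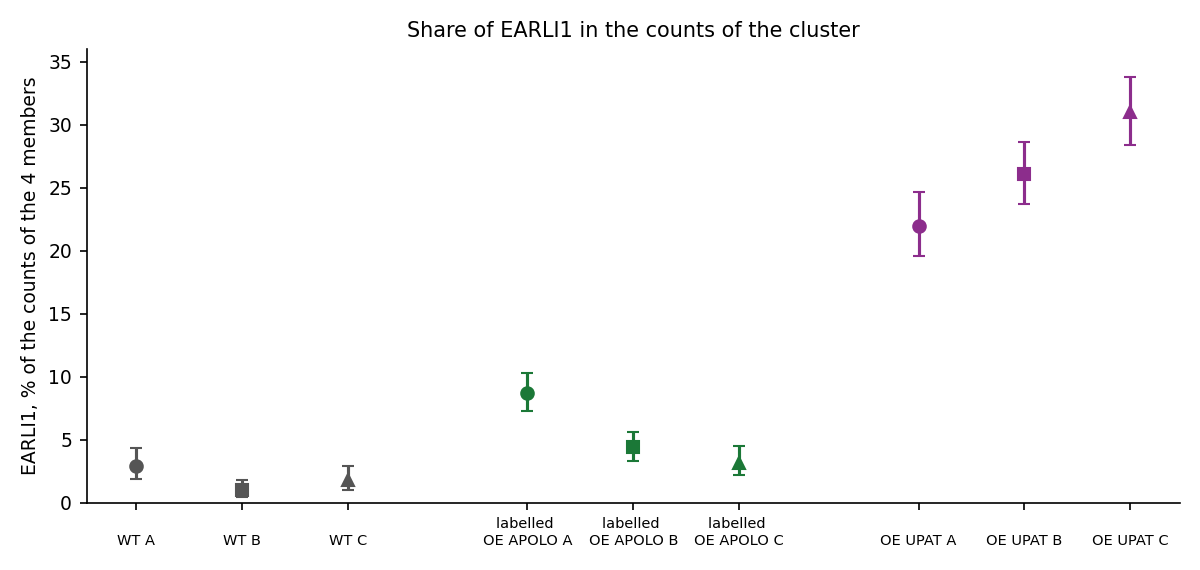
Share of EARLI1, in percent, in the summed counts of AZI1, EARLI1, AZI3 and AZI4 for each of the 9 libraries. Bars are exact 95% binomial intervals, which cover counting error only; WT spans 1.05% to 2.90% and OE UPAT 22% to 31.0%.

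The summed level of the 4 members was 63.7 ± 6.06 CPM in WT (SD, n = 3), 96.1 ± 11.2 in the OE APOLO-labelled libraries and 135 ± 17.5 in OE UPAT. In the OE APOLO-labelled libraries the mean of AZI1 rose by 28 CPM and that of EARLI1 by 4.23 CPM. In OE UPAT they rose by 35.6 and 34.9 CPM, nearly the same amount of RNA from very different starting levels.

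Within groups, EARLI1 and AZI1 ranked the libraries alike in both transgenic groups and not in WT. In WT, library A had the highest EARLI1 and the lowest AZI1, with deviations from the group mean of 0.40 and -0.17 on the log2 scale. Library A was highest for both in the OE APOLO-labelled group, by 0.88 and 0.10. In OE UPAT, A was lowest for both, with -0.45 and -0.12. Over the 9 libraries the correlation of these deviations was 0.337, a description over libraries that share groups. The pooled within-group SD was 0.585 for EARLI1 and 0.130 for AZI1.

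The cluster is the start of a longer array of related genes that runs to AIR1, over 38719 bases. The next question was whether the genes around the members differed as they did. AT4G12510 and AT4G12520, the next copies, had 40.7 ± 2.54 and 54.0 ± 4.57 CPM in WT (SD, n = 3) and neither was called in either contrast. Their log2 fold changes in OE UPAT were -0.03 ± 0.097 and -0.07 ± 0.097 (SE). AT4G12510 and AT4G12520 share 50.1% and 56.8% of their 75-base windows with other places in the genome, so reads could be split between them.

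Farther along, AT4G12545 had 16.3 ± 0.938 CPM in WT and rose to 32.9 ± 1.56 in OE UPAT (SD, n = 3). Its log2 fold change was 1.02 ± 0.10, at an FDR of 3.39e-06 by the quasi-likelihood test of edgeR. In the OE APOLO-labelled libraries it was 0.02 ± 0.11 and was not called. AIR1, named for induction by auxin in root cultures, stood at 13.2 ± 0.697 CPM in WT and 19.7 ± 1.15 in OE UPAT (log2 fold change 0.58 ± 0.16), and did not pass the threshold (FDR 0.0136 in edgeR). It passed under 6 of 17 alternatives, and also between the lines, with 0.66 ± 0.17 (FDR 0.00745 in edgeR). Both genes overlap an antisense gene (AT4G12543 and AT4G12555), and it is not stated whether the counting used the strand.

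On the near side, before AZI1, none of the tested neighbours was called in either contrast. ORP2B, an oxysterol-binding protein next to AZI1, had 36.9 ± 3.14, 39.3 ± 0.532 and 34.0 ± 2.93 CPM in WT, the OE APOLO-labelled libraries and OE UPAT. TPPF, APT4 and AT4G12450 had log2 fold changes in OE UPAT of 0.25 ± 0.24, 0.42 ± 0.31 and -0.54 ± 0.35 (SE). Past AIR1, CPR1 and UPL5 fell in OE UPAT (log2 fold changes -0.36 ± 0.069 and -0.48 ± 0.075, FDR 0.00113 and 0.000168 in edgeR). CPR1 is an F-box protein that restrains immune receptors, and UPL5 is a ubiquitin ligase. AT4G12540 was not called (0.79 ± 0.49 in OE UPAT), and AT4G12530, AT4G02905 and AT4G12580 were too low to be tested.

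**Figure D3:**
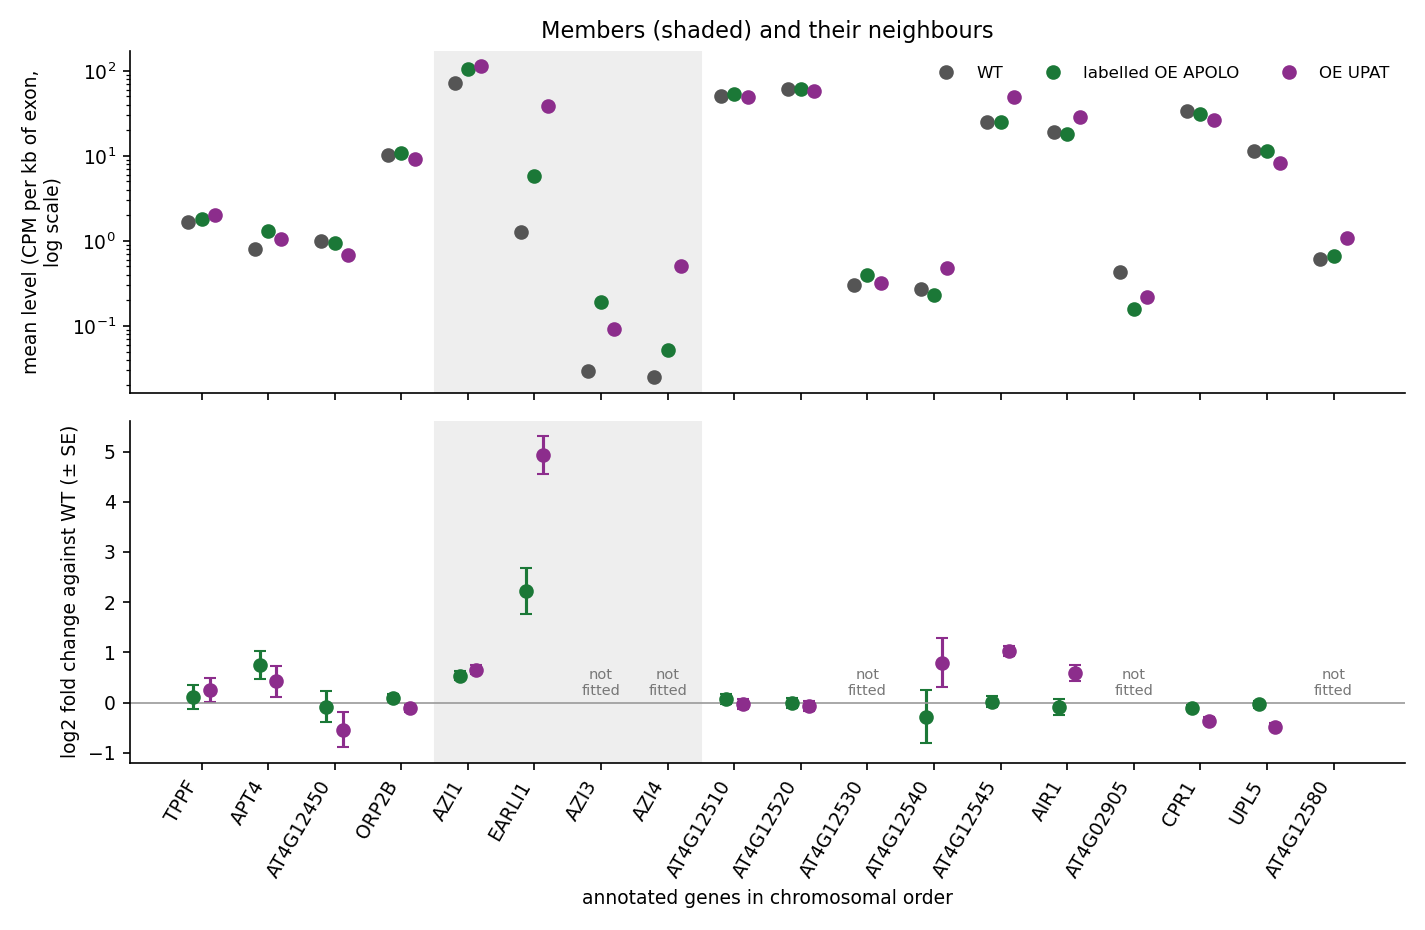
Genes in chromosomal order from TPPF to AT4G12580, members shaded, with those of at least 10 counts over all libraries besides the members. The upper panel gives the mean level per group in CPM per kb of exon on a log axis, and the lower panel the log2 fold change against WT with its SE; EARLI1 reaches 4.93 in OE UPAT, and AT4G12545 reaches 1.02.

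Genes of the same protein type were examined as the family list: 26 hybrid proline-rich and cysteine-block genes, none of them a member, of which 22 were tested. The list includes AT4G12510, AT4G12520, AT4G12530, AT4G12545 and AIR1 of the array described above, so it is not independent of the neighbours. In the OE APOLO-labelled libraries, 3 were called higher and 2 lower, beside 4.27% and 2.27% of all genes. In OE UPAT, 5 were higher and 1 lower, beside 10.1% and 9.72%. The median log2 fold change of the list was 0.01 and 0.24, against 0.00 and -0.01 over all genes tested. The count of 5 in the OE APOLO-labelled libraries fell to 1 without WT A and to 3 without WT B.

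The genes of the list that rose in OE UPAT were AT4G12545, ELP, AT2G10940, AT2G45180 and AT4G00165. WT had 854 ± 23.0 CPM of AT2G10940 and OE UPAT 1978 ± 193 (SD, n = 3). This is a log2 fold change of 1.21 ± 0.10 (FDR 7.05e-07 in edgeR). AT2G45180 rose by 0.63 ± 0.091 and AT4G00165 by 0.96 ± 0.14. ELP, an extensin-like protein, rose by 0.36 ± 0.083, a call lost without 4 of the single libraries, at the most FDR 0.0288 in edgeR without OE UPAT C. AT1G62510 fell from 126 ± 7.60 to 80.2 ± 5.14 CPM.

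In the OE APOLO-labelled libraries, AT2G10940 rose by 0.59 ± 0.10, AT2G45180 by 0.46 ± 0.091 and AT4G22470 by 1.66 ± 0.34 on the log2 scale. AT4G15160 fell from 16 ± 1.13 to 8.47 ± 1.01 CPM (SD, n = 3). AT4G22485 had 28, 21 and 18 counts in WT and 4, 4 and 0 in the OE APOLO-labelled libraries. It shares 5.75% of its 75-base windows with other places. All of these calls but that of AT4G15160 were lost without WT A, with an FDR in edgeR of 0.0102 for AT2G10940, 0.0197 for AT2G45180, 0.0290 for AT4G22470 and 0.0156 for AT4G22485. That of AT2G45180 was also lost without WT B or OE APOLO B. That of AT4G22470 was also lost without WT B, WT C or OE APOLO A, with only the groups compared, and in DESeq2.

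The partners of AZI1 in systemic resistance were examined in a list of 29 genes of azelaic acid, lipid transfer and salicylic acid signalling, of which 26 were tested. The calls were 2 higher and 2 lower in the OE APOLO-labelled libraries, beside 4.27% and 2.27% of all genes, and 7 higher and 1 lower in OE UPAT, beside 10.1% and 9.72%. The median log2 fold change was 0.16 and 0.04, against 0.00 and -0.01 over all genes tested. The count of 4 in the OE APOLO-labelled libraries fell to 1 without WT A, 2 without WT C and 1 without OE APOLO B. The count of 8 in OE UPAT fell to 4 without WT C, 5 without OE UPAT A and 4 without OE UPAT C.

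In OE UPAT the called genes with the smallest p-values were LOX1, HWI1 and GLY1. LOX1, a lipoxygenase of the kind that forms fatty acid hydroperoxides, had 49.2 ± 16.3 CPM in WT and rose to 108 ± 7.56 (SD, n = 3; log2 fold change 1.13 ± 0.19 SE, FDR 0.000411 in edgeR). HWI1, a plasmodesmal protein, rose by 0.70 ± 0.13 and GLY1, which makes glycerol-3-phosphate, by 0.83 ± 0.15. Of the other genes called higher, ALD1, PR5 and AT5G03350 rested on few reads. They had at most 4, 2 and 5 counts in a WT library and 19, 9 and 10 in one of OE UPAT. The call of AT5G03350 was lost under 9 of the 14 alternatives that gave it an FDR, that of PR5 under 5 of 14, and that of ALD1 under 0 of 16. MPK6, a MAP kinase of immune signalling, fell by 0.34 on the log2 scale, a call lost without any of 4 single libraries (at the most FDR 0.0160 in edgeR, without OE UPAT C).

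In the OE APOLO-labelled libraries, AT5G48490, a close relative of the lipid-transfer protein DIR1 that acts with AZI1, rose from 16.9 ± 1.81 to 25.7 ± 2.95 CPM (SD, n = 3; log2 fold change 0.60 ± 0.11 SE, FDR 0.00142 in edgeR). LTP2, a lipid-transfer protein, rose by 0.59 ± 0.11. LOX1 fell from 49.2 ± 16.3 to 25.6 ± 8.53 CPM. PR1, the marker of salicylic acid responses, had 29.5, 10 and 10 counts in WT and 1.5, 0 and 0 in the OE APOLO-labelled libraries. The ratio of its pooled counts, rounded to 2 and 50, was 0.0417 after scaling to library totals, with an exact 95% counting interval from 0.00492 to 0.159. The call of AT5G48490 was lost without WT C (FDR 0.0110 in edgeR), that of LTP2 without WT A, WT C or OE APOLO B, and that of PR1 without WT A or OE APOLO B, or with all libraries thinned to the smallest. That of LOX1 was lost without any of 6 single libraries, at the most FDR 0.0374 in edgeR without WT A. DESeq2 did not make that call either.

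Because EARLI1 is known as a cold-induced gene, 16 genes of the cold regulon were set beside it, of which 14 were tested. The seedlings were not chilled. Of these, 4 were called higher and 0 lower in the OE APOLO-labelled libraries, beside 4.27% and 2.27% of all genes. In OE UPAT, 0 were higher and 6 lower, beside 10.1% and 9.72%. The median log2 fold change of the list was 0.32 and -0.38, against 0.00 and -0.01 over all genes tested. EARLI1 was highest in OE UPAT, and a link between its level and this list was not tested. The count of 4 fell to 2 without WT A.

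The CBF activators of that regulon gave no call: CBF1 had log2 fold changes of 0.94 ± 0.29 (SE) and 0.14 ± 0.34, CBF2 of 0.83 ± 0.38 and -0.22 ± 0.48, and CBF3 (DREB1A) was too low to be tested. KIN2 rose from 45.2 ± 1.46 CPM in WT to 89.3 ± 6.19 in the OE APOLO-labelled libraries (SD, n = 3; log2 fold change 0.98 ± 0.07 SE, FDR 1.26e-06 in edgeR). COR413IM1, of the chloroplast envelope, rose there by 0.57 ± 0.098 and ERD10, a dehydrin, by 0.35 ± 0.062, the latter with an FDR of 0.0125 in edgeR without WT A. In OE UPAT, LTI78 fell from 70.0 ± 5.73 to 28.5 ± 3.50 CPM (log2 fold change -1.29 ± 0.091, FDR 1.08e-07 in edgeR). The log2 fold change of KIN1 was -2.11 ± 0.26 and that of COR413IM1 -0.74 ± 0.11. KIN2 was also called lower there, at 35.3 ± 1.15 CPM (log2 fold change -0.35 ± 0.076, FDR 0.00216 in edgeR). That call was lost without WT A, OE UPAT B or OE UPAT C.

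**Figure D4:**
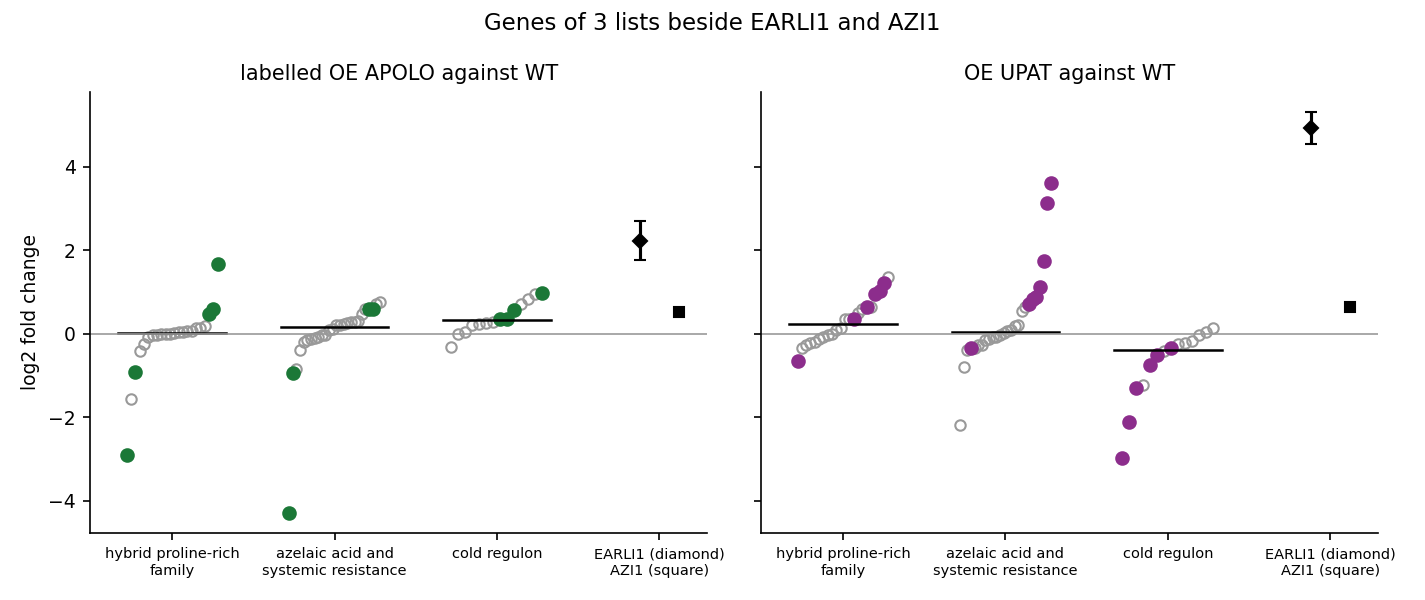
Log2 fold change against WT of each tested gene of the family, systemic resistance and cold lists, in the OE APOLO-labelled libraries (left) and OE UPAT (right). Filled points passed an FDR under 0.01, open points did not, and the line is the list's median. EARLI1 and AZI1 are shown with their SE as a description. The lowest point on the left is PR1, whose fitted value rests on 1.5 counts in that group, rounded to 2 for the fit.

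The genes most like EARLI1 in pattern, by Pearson correlation of log2(CPM + 0.5) over the 9 libraries, were SBT1.3 (r = 0.986), AT3G62530 (0.982), AT5G66470 (0.980), ROC3 (0.980) and AT5G46580 (0.979). All had their highest mean in OE UPAT and their lowest in WT, but with far smaller differences. SBT1.3, a subtilase, had 35.9 ± 0.274 CPM in WT and 51.3 ± 2.5 with UPAT (SD, n = 3). AT3G62530 went from 37.2 ± 1.34 to 86.5 ± 8.55 CPM. AZI1 came at rank 1299 of 20020 genes, with r = 0.830. Since the points share libraries and groups, these values are a description.

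The labelled tissue was checked with marker genes of root, shoot and seed. Of 15 root markers only NRT2:1 was at or under the floor in every group, and none of 10 shoot markers was. The summed root markers stood at 1826 to 2102 CPM in WT, 2329 to 2990 in the OE APOLO-labelled libraries and 2269 to 2463 in OE UPAT. Of 13 root markers tested, 2 were called higher and 0 lower in the OE APOLO-labelled libraries, and 0 higher and 1 lower in OE UPAT, beside 4.27% and 2.27%, and 10.1% and 9.72%, of all genes. The summed shoot markers stood at 30652 to 37817, 34416 to 39645 and 39804 to 47676 CPM in the same order, with 2 and 5 of 10 called higher and none lower, beside the same shares of all genes. One root marker, PYK10, made up most of its sum, with 1768 ± 137, 2362 ± 342 and 2202 ± 110 CPM (SD, n = 3), and was not called. The median log2 fold change of the root markers was 0.07 in the OE APOLO-labelled libraries and -0.16 in OE UPAT, and that of the shoot markers 0.16 and 0.41. The 8 seed storage markers summed to 4.89 to 11.4, 3.28 to 36 and 1.96 to 4.79 CPM, and SESA1, SESA2, SESA3 and CRU2 were at or under the floor in WT. The part of tissue proportions in the levels of the members was not tested.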

How the data were processed

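Per the study's methods, libraries were made with a stranded mRNA kit and read as single ends of 75 bases. DNase treatment and 3 replicates per genotype are named there in describing the other RNA-Seq experiment. The authors trimmed the reads (Trimmomatic), removed ribosomal sequences (SortMeRNA), aligned the rest (STAR) and counted reads over exons with featureCounts and Araport11. The submitters' processing notes give TAIR10, Trimmomatic 0.36, STAR 2.5.2b and Subread 1.6.5. The authors deposited estimated counts per feature, not scaled for depth; some are fractions such as 0.5, as when a read is divided between features. The setting for shared reads and the use of strand in counting are not given in the sources used here. Coordinates and sequences come from RefSeq (TAIR10.1), in which 37898 of 38194 genes were found. The region upstream of 1 member is not reported here.

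Of 69383 features, 31189 transposable elements (0.233% to 0.272% of counts) were left out. Counts were rounded for testing, and CPM was computed from unrounded counts with TMM factors. Tests used edgeR 4.0.16 in R 4.3.3 (filterByExpr, glmQLFit, glmQLFTest) with the 9 libraries fitted together, without covariates. It was run on the 20021 genes that passed the filter, over which p-values were adjusted by Benjamini and Hochberg, and a gene was called at an FDR under 0.01 as in the study. The script was tested on simulated data. Protein lengths and identities came from translated RefSeq coding sequence (Biopython 1.88). Ratios of pooled counts have exact 95% intervals.

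The members and the gene lists were chosen with earlier results of these data known. Besides the members, the text names every gene with at least 10 counts from 5 genes before AZI1 to 5 genes after AIR1, every called gene of the family list, the 3 called genes with the smallest p per direction of the other lists, the 5 genes most like EARLI1, and, chosen after their values were seen, CBF1, CBF2 and DREB1A. ALD1, PR5 and AT5G03350 were also chosen after their values were seen. Group names follow the labels. Every pair of replicates differed by more than sampling noise (chi-square per gene 1.76 to 7.11, where counting noise alone gives about 1). Alternatives were DESeq2 1.42.0, RLE and upper-quartile scaling, other filters, only the groups compared, a replicate block, thinning, leaving out each library, and an FDR under 0.05.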

Additional observations from a re-analysis of the deposited data

How the results depend on the processing

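Of 102 values of AZI1 and EARLI1 under 17 alternatives, none changed direction and 100 moved by less than the within-group SD. Leaving out 1 library at a time, the log2 fold change of EARLI1 ranged from 1.6 to 2.57 in the OE APOLO-labelled libraries, from 4.65 to 5.28 in OE UPAT and from 2.40 to 3.34 between the lines, and that of AZI1 from 0.45 to 0.60, 0.57 to 0.72 and 0.05 to 0.18. Both larger moves came without OE APOLO A. The counts of called genes ranged, without 1 library, from 1 to 5 (family), 1 to 4 (systemic resistance) and 2 to 4 (cold) in the OE APOLO-labelled libraries, and from 5 to 8, 4 to 10 and 5 to 6 in OE UPAT. With at least 10 counts in every library, which tests fewer genes, the family count in the OE APOLO-labelled libraries was 3 and the systemic resistance count in OE UPAT was 5. With only the groups compared, the systemic resistance count in the OE APOLO-labelled libraries was 2 (the cause was not tested). At an FDR under 0.05 the cold count there was 7, and in OE UPAT the family count was 10 (8 higher, 2 lower) and the systemic resistance count 14 (8 higher, 6 lower, against 7 and 1 at an FDR under 0.01). AZI3 and AZI4 did not pass the filter of the main fit, and no fitted value is given for them under any setting. A count of 3, the floor, is up to 0.393 CPM.

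No pairing by replicate letter was seen: same-letter deviations correlated by -0.219 to 0.154 between groups, and different-letter ones by -0.228 to 0.293. Whether same-letter libraries shared a batch is not known. With the letter as a replicate block, EARLI1 was at 2.22 and 4.95 and AZI1 at 0.54 and 0.65 in both contrasts with WT, and 2.74 and 0.11 between the lines. The list counts under the replicate block were 5, 4 and 4 in the OE APOLO-labelled libraries and 6, 8 and 6 in OE UPAT (family, systemic resistance, cold). With a pseudocount of 2 in place of 0.5, 4 of the 5 genes most like EARLI1 were the same genes.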
